A study of Rattus norvegicus with 11 samples.

Results

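The genes of the classical rat MHC class II molecules and of their chaperone were measured in the epithelial cells of the rat alveolus. They are RT1-Da (Entrez gene 294269), RT1-Db1 (294270), RT1-Ba (309621), RT1-Bb (309622) and Cd74 (25599), the invariant chain. All probe sets that the array annotation assigns to exactly 1 of these genes were taken, which gave 16 probe sets of 5 genes, out of 7006 probe sets with exactly 1 gene and 4736 genes. RT1-Da and RT1-Db1 had 2 probe sets each, RT1-Ba had 3, RT1-Bb had 5 and Cd74 had 4. Total RNA had been hybridised to 11 Affymetrix rat arrays. Of these, 3 arrays held RNA of cultured TII cells, 4 of freshly isolated TI cells and 4 of freshly isolated TII cells. The array titles give day 7 for the cultured cells and day 0 for both fresh groups. TI (type I) cells are the flat cells that line most of the alveolar surface, and TII (type II) cells are the cuboidal cells that secrete surfactant. Strain, age and isolation method are not given in the sources used here, nor is whether replicate arrays stem from different animals. Every p-value below therefore measures only the spread between these arrays, which may be technical.

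An MHC class II molecule is a pair of chains, alpha and beta, that carries peptides from the endosome to the cell surface and shows them to helper T cells. The invariant chain Cd74 binds new class II dimers in the endoplasmic reticulum, fills the groove and steers them to the endosome, where cathepsins cut it away and the DM molecule exchanges the remaining fragment for peptide. Class II genes are transcribed mainly in dendritic cells, macrophages and B cells, and alveolar type II cells are among the epithelial cells known to carry class II molecules without inflammation.

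The class II genes and Cd74 are known to share a promoter module, in which an X box bound by RFX and a Y box bound by NF-Y stand at a fixed distance and recruit the coactivator CIITA. The stretches below show where these letters lie in the RefSeq promoters (assembly GRCr8), 5′ to 3′ on the gene's strand. Capitals mark matches to the X1 box letters AGNNACNGATG, to the Y box CTGATTGG, which contains the CCAAT core ATTGG, and to that core alone on either strand.
RT1-Da, chr20:4515298-4515397, plus strand: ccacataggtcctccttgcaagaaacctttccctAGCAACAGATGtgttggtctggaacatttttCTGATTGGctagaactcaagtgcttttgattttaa
RT1-Db1, chr20:4560211-4560310, minus strand: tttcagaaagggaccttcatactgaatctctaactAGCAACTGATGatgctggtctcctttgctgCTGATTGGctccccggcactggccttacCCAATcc
RT1-Ba, chr20:4576946-4577045, plus strand: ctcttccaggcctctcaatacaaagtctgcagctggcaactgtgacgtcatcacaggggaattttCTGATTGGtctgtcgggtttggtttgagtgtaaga
RT1-Bb, chr20:4604148-4604247, minus strand: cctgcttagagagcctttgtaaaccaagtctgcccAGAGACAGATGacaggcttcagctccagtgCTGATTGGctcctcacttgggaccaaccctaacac
Cd74, chr18:56526956-56527051, plus strand: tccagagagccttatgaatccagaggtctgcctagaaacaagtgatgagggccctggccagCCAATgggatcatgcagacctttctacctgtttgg
All 5 genes matched a promoter of 300 bases, with 250 before and 50 after the annotated start. The X1 letters were found in the promoters of RT1-Da, RT1-Db1 and RT1-Bb, 3 of 5, and in 318 of all 33469 promoters (0.95%). The Y letters were found in RT1-Da, RT1-Db1, RT1-Ba and RT1-Bb, 4 of 5, and in 1172 of all promoters (3.5%). The core alone is common, at 37.5% of all promoters, and was the only match in Cd74, on the opposite strand at base -189 from the start. An X1 match followed on the same strand by a Y match after 10 to 30 bases was found in 4 of 33469 promoters, those of RT1-Da, RT1-Db1, RT1-Bb and RT1-Db2. The spacing was 20 bases in RT1-Da and 19 in both RT1-Db1 and RT1-Bb. The X1 letters are those that the stretches of 11 bases before the Y box share in RT1-Da, RT1-Db1 and RT1-Bb, with N where they differ, so these 3 matches are given by construction. The same gap of 10 to 30 bases was used to choose them, so the low count over all promoters tests nothing. RT1-Db2 is a near copy of RT1-Db1, so its match is not an independent one. A missing X1 match in RT1-Ba and Cd74 does not show that an X box is absent, since variant letters were not searched. In RT1-Ba the Y box is preceded by the letters of a cyclic AMP response element, TGACGTCA, which 1.83% of promoters hold. The map of motif matches places these letters against the gene starts.

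**Figure D1:**
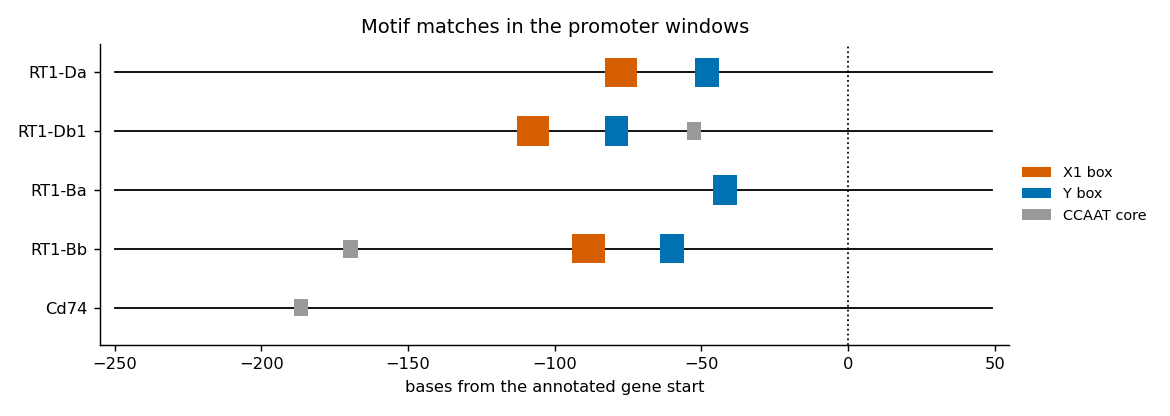
Motif matches in the promoters of the 5 genes, from 250 bases before to 50 after the annotated start (horizontal axis, in bases; 1 line per gene). Orange and blue boxes (X1 and Y letters) stand together in RT1-Da, RT1-Db1 and RT1-Bb, RT1-Ba has a blue box only, and grey boxes are the CCAAT core outside a Y box, the only match in Cd74.

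The values are the authors' deposited log2 signals. Differences below are log2 differences ± SE from limma fitted to all 11 arrays, with p-values adjusted by the Benjamini-Hochberg method over 8740 probe sets, and 0.05 was the threshold for a call. The 3 comparisons share arrays, so they are not independent of each other. Array medians lay between 5.43 and 5.51. As a check of the labels, the TI cell glycoprotein gene Pdpn read 9.20 to 9.47 in cultured TII, 10.03 to 10.23 in fresh TI and 5.57 to 5.75 in fresh TII cells. The surfactant protein gene Sftpc, a defining TII marker, read 5.04 to 5.24 in cultured TII, 10.73 to 12.51 in fresh TI and 12.99 to 13.16 in fresh TII cells, with no overlap between groups. Leukocyte markers are set beside the class II results further on.

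Setting fresh TI beside fresh TII cells asks which of the neighbouring alveolar cell types carries class II transcripts. Each of the 5 genes was lower in fresh TI cells by its brightest probe set, by 1.34-fold for RT1-Ba and by 3.74-fold to 4.45-fold for the other 4 genes. Of the 16 probe sets, 15 were called, where 54.7% of all probe sets were: 13 were lower and 2 higher, with 20.4% and 34.3% of all probe sets. At least 2-fold lower were 10 of 16, against 5.22% of all probe sets. The median difference of the 16 was -1.78, and that of all probe sets 0.125. The arrays of the groups did not overlap for 12 probe sets lower and 2 higher in fresh TI cells, where 19.5% of all probe sets were lower and 31.3% higher without overlap. In bulk RNA, fewer cells that carry a transcript and less of it per cell cannot be told apart.

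Setting TII cells in culture beside fresh ones asks what became of these transcripts in TII cells by day 7 of culture. All 5 genes were again lower by their brightest probe set, by 1.93-fold for RT1-Ba, 6.71-fold for RT1-Db1, 10.2-fold for RT1-Bb, 12.3-fold for Cd74 and 18.3-fold for RT1-Da. Of the 16 probe sets, 13 were called, all lower, where 33.4% of all probe sets were called, 14.3% lower and 19.1% higher. At least 2-fold lower were 12, against 4.22% of all. The median of the 16 was -2.89, beside -0.0105 for all probe sets, and 10 of the 16 were among the 100 lowest of the 8740 differences. The groups did not overlap for 15 of 16, all lower in cultured cells, against 20.6% of all probe sets lower and 22.7% higher.

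Set against fresh TI cells, cultured TII cells were lower at all 5 genes, by 1.44-fold for RT1-Ba to 4.65-fold for RT1-Da by the brightest probe sets. Here 15 of 16 probe sets were called, all lower, where 59.9% of all probe sets were called, 35.7% lower and 24.2% higher. At least 2-fold lower were 9, against 2.41% of all. The groups did not overlap for 8 of the 16, all lower in cultured cells, where 34.1% of all probe sets were lower and 23.2% higher without overlap. The median of the 16 was -1.15, and the median of all probe sets was -0.131, which another scaling with the same median and SD on every array brought to -0.023. Under that scaling RT1-Ba M22366_at, at -0.31 as deposited, was -0.347 and still called. RT1-Bb X56596_at, also -0.31, was -0.199 and not called (adjusted p = 0.103, limma), and it also lost its call after quantile normalization and without cultured TII replicate 1 or 2.

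**Figure D2:**
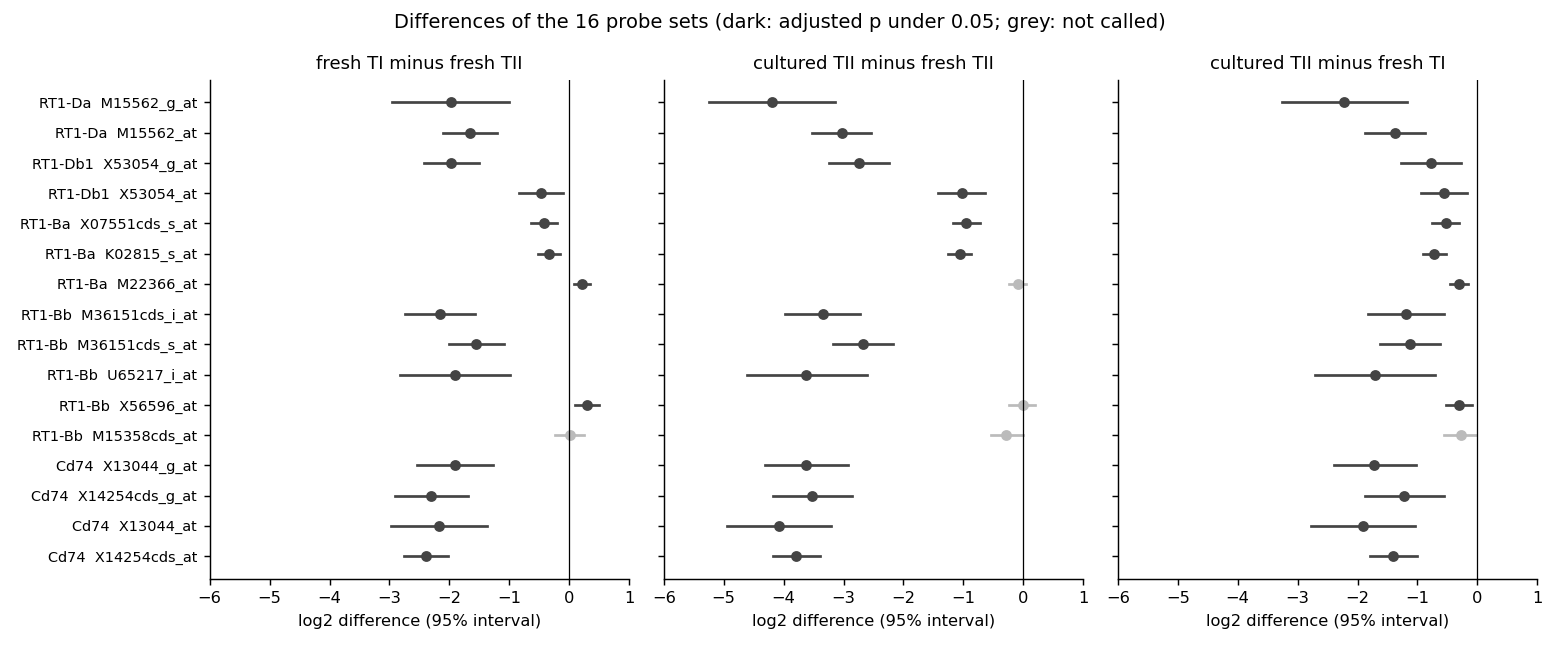
Log2 differences of the 16 probe sets (rows) with 95% intervals (horizontal axis), for the 3 comparisons, named above each panel. Dark points passed an adjusted p of 0.05 and grey points did not; the points furthest left are those of RT1-Da, Cd74 and RT1-Bb in cultured minus fresh TII cells, down to -4.20.

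Among the alpha chain genes, RT1-Da encodes the alpha chain of the rat D molecule, the counterpart of human DR. Its probe set M15562_g_at read 5.06, 6.44 and 7.78 on cultured TII arrays 1 to 3, 8.99, 9.0, 8.85 and 7.75 on fresh TI arrays 1 to 4, and 10.88, 10.50, 10.59 and 10.53 on fresh TII arrays 1 to 4. All fresh TII arrays stood above all others, while the highest cultured array reached the lowest fresh TI array. The difference was -1.98 ± 0.45 for fresh TI minus fresh TII cells (adjusted p = 0.00281, limma), -4.20 ± 0.48 for cultured minus fresh TII cells (adjusted p = 1.46e-05) and -2.22 ± 0.48 for cultured TII minus fresh TI cells (adjusted p = 0.00184). The size of the last 2 rests on single cultured arrays: without cultured TII replicate 1 they were -3.52 and -1.53, and without replicate 3 they were -4.87 and -2.89, all still called. M15562_at, from the same source sequence, read 5.96, 6.21 and 6.98 in cultured TII, 8.04, 7.98, 7.77 and 7.24 in fresh TI and 9.57, 9.26, 9.50 and 9.33 in fresh TII cells. By this probe set the 3 groups did not overlap, and the differences were -1.66 ± 0.21, -3.03 ± 0.23 and -1.38 ± 0.23 in the same order of comparisons.

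RT1-Ba encodes the alpha chain of the B molecule, the counterpart of human DQ, and had the smallest differences of the 5 genes by the brightest probe sets in all 3 comparisons. X07551cds_s_at read 7.64, 7.78 and 7.93 in cultured TII, 8.33, 8.54, 8.35 and 8.05 in fresh TI and 8.66, 8.74, 8.78 and 8.77 in fresh TII cells. The groups did not overlap, though the gaps were narrow: -0.42 ± 0.10 for fresh TI minus fresh TII (adjusted p = 0.00362, limma) and -0.95 ± 0.11 for cultured minus fresh TII (adjusted p = 1.22e-05). After quantile normalization the first of these was -0.14 and was no longer called (adjusted p = 0.182, limma). K02815_s_at read 6.56, 6.46 and 6.56 in cultured TII, 7.40, 7.33, 7.18 and 7.09 in fresh TI and 7.60, 7.48, 7.70 and 7.56 in fresh TII cells. It differed by -0.34 ± 0.08 and -1.06 ± 0.09 in these comparisons, both called. The third probe set, M22366_at, went the other way in fresh TI cells: it read 6.64 to 6.82 there, against 6.49 to 6.54 in fresh TII cells, a difference of 0.22 ± 0.06 (adjusted p = 0.0124, limma). In cultured TII cells it read 6.40 to 6.46, which was -0.09 ± 0.07 from fresh TII cells (adjusted p = 0.352, limma).

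Of the beta chain genes, RT1-Db1 encodes a partner of RT1-Da. X53054_g_at read 6.58, 6.47 and 7.34 in cultured TII, 7.81, 7.85, 7.72 and 6.92 in fresh TI and 9.70, 9.56, 9.49 and 9.41 in fresh TII cells. Fresh TII arrays stood apart, and the ranges of cultured TII and fresh TI arrays overlapped. The differences were -1.97 ± 0.21 for fresh TI minus fresh TII (adjusted p = 9.7e-06, limma), -2.75 ± 0.23 for cultured minus fresh TII (adjusted p = 8.7e-07) and -0.78 ± 0.23 for cultured TII minus fresh TI (adjusted p = 0.0119). The last was not called without cultured TII replicate 2, at -0.62 (adjusted p = 0.0606, limma). X53054_at was dim, at 3.96 to 4.22 in cultured TII, 4.11 to 5.05 in fresh TI and 4.83 to 5.30 in fresh TII cells. It differed by -0.47 ± 0.17 for fresh TI minus fresh TII, where the groups overlapped and the call was lost without fresh TII replicate 1 or 2 or fresh TI replicate 3 or 4, and by -1.03 ± 0.18 for cultured minus fresh TII, where they did not. Its near copy RT1-Db2 lies beside it in the RefSeq order and has no probe set of its own here, and whether its transcripts add to these signals was not tested.

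RT1-Bb encodes the beta chain of the B molecule, and 3 of its 5 probe sets moved with RT1-Da and RT1-Db1. M36151cds_i_at read 5.64, 6.14 and 6.83 in cultured TII, 7.92, 7.42, 7.65 and 6.59 in fresh TI and 9.66, 9.46, 9.65 and 9.42 in fresh TII cells. Only fresh TII arrays stood clear of both other groups. It differed by -2.15 ± 0.27 for fresh TI minus fresh TII (adjusted p = 3.26e-05, limma), by -3.35 ± 0.29 for cultured minus fresh TII (adjusted p = 1.1e-06) and by -1.19 ± 0.29 for cultured TII minus fresh TI (adjusted p = 0.00389). M36151cds_s_at read 6.05 to 6.64 in cultured TII, 6.72 to 7.80 in fresh TI and 8.82 to 9.26 in fresh TII cells, and U65217_i_at read 3.18 to 4.70, 4.17 to 6.56 and 7.35 to 7.78. Both kept fresh TII arrays apart from the rest. M36151cds_s_at differed by -1.55 ± 0.21, -2.67 ± 0.23 and -1.12 ± 0.23 in these comparisons, and U65217_i_at by -1.90 ± 0.43, -3.62 ± 0.46 and -1.71 ± 0.46, all called. The other 2 probe sets of the gene stood apart from these. X56596_at read 4.42 to 4.70 in cultured TII, 4.70 to 4.94 in fresh TI and 4.40 to 4.69 in fresh TII cells, so that fresh TI cells were 0.29 ± 0.09 higher than fresh TII cells (adjusted p = 0.017, limma). That call was lost after quantile normalization, at 0.189, with a common median and SD, at 0.203, and without fresh TII replicate 1, at 0.249. M15358cds_at read 3.97 to 4.44, 4.31 to 4.80 and 4.45 to 4.58 in the same 3 groups and was called in none of the 3 comparisons.

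Cd74, the chaperone that all these dimers share, was lower in fresh TI and in cultured TII cells than in fresh TII cells by each of its 4 probe sets. X13044_g_at read 6.74, 7.42 and 8.07 in cultured TII, 9.37, 9.63, 9.29 and 8.22 in fresh TI and 11.13, 11.09, 10.99 and 10.90 in fresh TII cells. X14254cds_at read 6.38, 6.36 and 6.65 in cultured TII, 8.01, 8.13, 8.10 and 7.22 in fresh TI and 10.24, 10.22, 10.38 and 10.19 in fresh TII cells. By both probe sets the 3 groups did not overlap, with cultured TII arrays lowest and fresh TII arrays highest. X13044_g_at differed by -1.90 ± 0.29 for fresh TI minus fresh TII (adjusted p = 0.000192, limma), by -3.62 ± 0.32 for cultured minus fresh TII (adjusted p = 1.19e-06) and by -1.72 ± 0.32 for cultured TII minus fresh TI (adjusted p = 0.000612). X14254cds_at differed by -2.39 ± 0.17, -3.79 ± 0.18 and -1.40 ± 0.18 in this order. X14254cds_g_at and X13044_at gave -2.30 ± 0.28 and -2.17 ± 0.37 for fresh TI minus fresh TII and -3.52 ± 0.31 and -4.08 ± 0.40 for cultured minus fresh TII cells. For these 2 probe sets the highest cultured array passed the lowest fresh TI array.

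**Figure D3:**
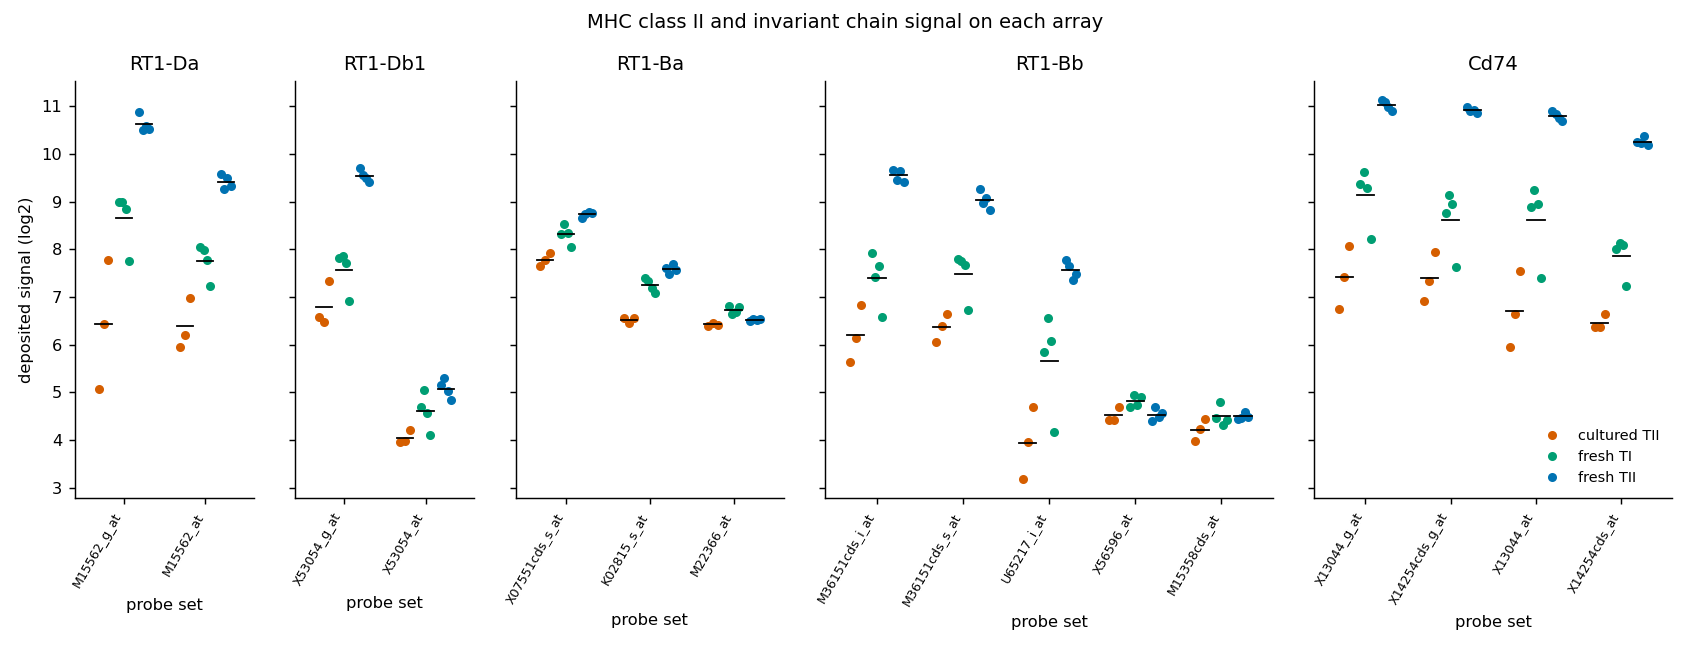
Deposited log2 signal (vertical axis) of each of the 16 probe sets (horizontal axis) on each array, by gene; points are arrays, black bars are group means, with cultured TII in orange (n = 3), fresh TI in green (n = 4) and fresh TII in blue (n = 4). Blue points lie highest except for RT1-Ba M22366_at, RT1-Bb X56596_at and RT1-Bb M15358cds_at and, by overlapping arrays, RT1-Db1 X53054_at.

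Probe sets of 1 gene were compared by the difference of each other probe set minus that of the brightest one. Over 11 pairs and the comparisons with fresh TII cells, 22 exact two-sided permutation tests were run. The smallest p these group sizes allow is 0.0286 for 4 against 4 arrays and 0.0571 for 3 against 4. After adjustment over the 22 tests these became 0.0698 and 0.0786, so 0 passed 0.05. With these smallest values none of the 22 could have passed, so the adjusted tests cannot decide whether probe sets differ. The sizes were widest within RT1-Bb: M36151cds_i_at and X56596_at differed by 2.45 in how far fresh TI cells lay below fresh TII cells, and by 3.33 for cultured cells (exact permutation p = 0.0286 and 0.0571, the smallest possible). M36151cds_i_at and U65217_i_at differed by 0.25 and -0.27 (exact permutation p = 0.571 and 0.171). Within RT1-Db1 the gap was 1.49 and 1.72. Probe sets with the suffixes s, g and i may include signal from other class II transcripts, which was not tested.

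Within groups the arrays did not vary alike. On fresh TI replicate 4, 13 of the 16 probe sets had their lowest value of the 4 fresh TI arrays, as did 26.3% of all probe sets. On cultured TII arrays, 13 of 16 were lowest on replicate 1 and 14 of 16 highest on replicate 3, where 33.2% and 33.1% of all probe sets were. The 3 cultured arrays spanned 2.72 for RT1-Da M15562_g_at. Fresh TII arrays lay close together, within 0.38 of each other for RT1-Da M15562_g_at. Left out in turn, no single array ended the call of any Cd74, RT1-Da or RT1-Bb M36151 or U65217_i_at probe set in any comparison. Without fresh TI replicate 4, which was the lowest fresh TI array, Cd74 X13044_g_at stood at -1.60 from fresh TII cells.

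Some genes of other cell types were low and high on the same arrays, and others were not. Ctss, the protease of antigen-presenting cells that trims Cd74, read 7.87, 9.02 and 9.80 on cultured TII arrays 1 to 3, 7.19, 7.68, 7.74 and 6.01 on fresh TI arrays 1 to 4, and 5.93, 5.64, 6.38 and 5.74 on fresh TII arrays 1 to 4. The leukocyte surface gene Cd53 read 5.69, 6.47 and 7.63 in cultured TII, 5.14, 5.87, 5.67 and 4.36 in fresh TI and 4.61, 4.29, 5.29 and 4.47 in fresh TII cells. The macrophage protease Mmp12 read 3.46, 5.01 and 6.18 in cultured TII cells, against 2.97 to 3.02 in fresh TII cells. For these 3 genes cultured array 1 was lowest and array 3 highest, as for the brightest probe sets of RT1-Da and Cd74. Cd74 X14254cds_at was lowest on cultured array 2. Of the 12 macrophage genes measured, 9 were lowest on cultured array 1 and 7 highest on array 3, and of 7 leukocyte genes 5 and 6 were. Fresh TI replicate 4 was the lowest fresh TI array for 4 macrophage genes and the highest for 6, among them Csf1r and Aif1, and it was the lowest for 5 of the leukocyte genes and the highest for 1. By the test, 4 macrophage genes were lower and 3 higher in cultured than in fresh TII cells, where 14% and 20.5% of all genes were, and 1 was lower and 4 higher in fresh TI than in fresh TII cells, where 21.2% and 33% of all genes were. Aif1 counts as lower in cultured cells by its brightest probe set, at -0.46. Its other probe sets were called higher there, at 1.19 and 1.26. The mean of the macrophage list ran from 5.12 to 5.77 on cultured TII, from 5.57 to 5.76 on fresh TI and from 5.28 to 5.40 on fresh TII arrays. Of the leukocyte genes, 5 (71.4%) were called higher in fresh TI and 2 (28.6%) in cultured than in fresh TII cells, and the others were not called. The leukocyte list averaged 5.11 to 5.65 on cultured TII, 5.13 to 5.71 on fresh TI and 4.95 to 5.24 on fresh TII arrays, and for both lists the cultured TII and fresh TII arrays overlapped. Of 3 B cell genes, Cd79b was 0.27 ± 0.07 higher in fresh TI than in fresh TII cells, and Cd79b, Cd37 and Cd72 differed by -0.16, -0.09 and -0.01 in cultured against fresh TII cells, not called.

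The B cell list averaged 4.60 to 4.87 on cultured TII, 5.05 to 5.13 on fresh TI and 4.80 to 4.92 on fresh TII arrays, and Ptprc, the pan-leukocyte CD45 gene, read 5.33 to 5.40, 5.79 to 6.18 and 5.50 to 5.60 on the same 3 sets. The deposited table holds no call of absence, so how far these levels are above background is not known. TII markers differed between the groups on average: the mean of 13 of them was 7.21 to 7.35 on cultured TII, 8.06 to 8.97 on fresh TI and 10.60 to 10.74 on fresh TII arrays. All 13 were lower in fresh TI than in fresh TII cells, where 21.2% of all genes were. In cultured against fresh TII cells 11 were lower and 1 higher, where 14% and 20.5% of all genes were. The higher gene was Ctsh, at 0.72 ± 0.09, and Cebpd was not called, at -0.55 ± 0.20. The 3′ minus 5′ signal of the actin control probe sets was -0.33 to -0.08 on cultured TII, 0.21 to 0.42 on fresh TI and 0.32 to 0.43 on fresh TII arrays. For the GAPDH control the groups lay closer together, at 0.30 to 0.45, 0.41 to 0.69 and 0.47 to 0.57 in the same order. The part of leukocytes, of TII cells among TI cells and of RNA quality in the class II differences was not tested.

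**Figure D4:**
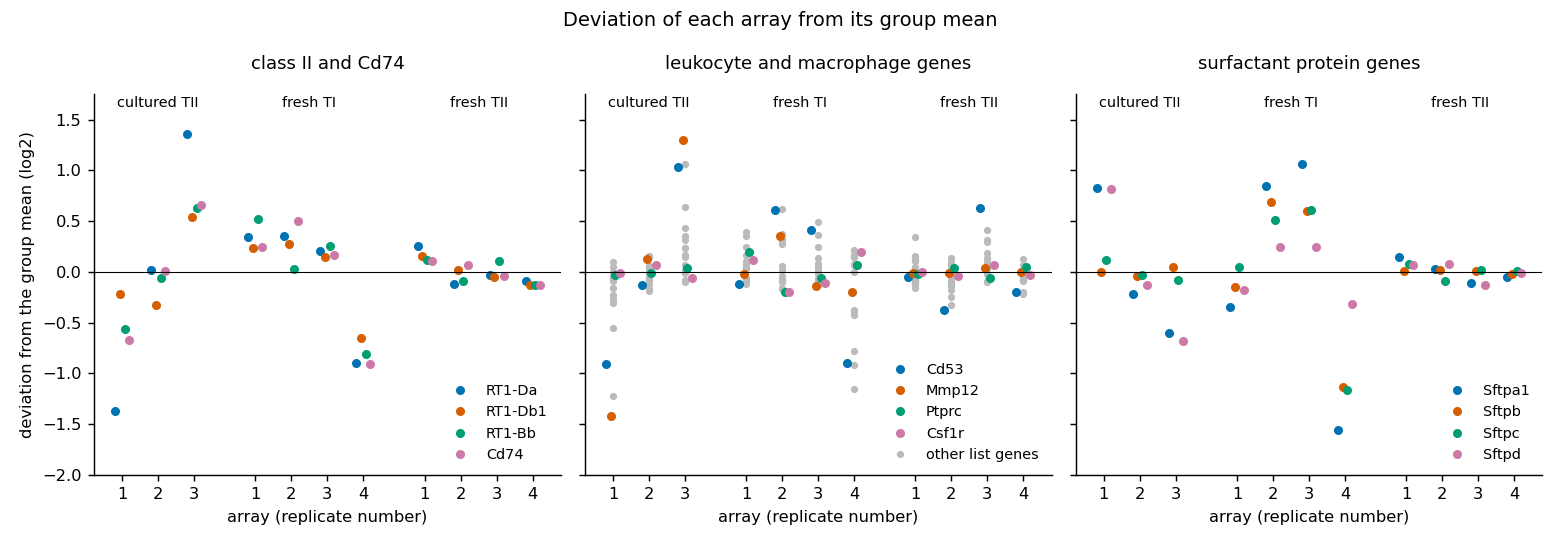
Deviation of each array (horizontal axis, replicate number) from the mean of its group (vertical axis, log2) for the brightest probe sets of RT1-Da, RT1-Db1, RT1-Bb and Cd74 (left), for the genes of the macrophage and leukocyte lists, 4 of them coloured (middle), and for 4 surfactant protein genes (right). Fresh TI array 4 lies below its group mean for the class II genes, Cd53 and the surfactant genes but not for Ptprc or Csf1r; on cultured arrays the class II, Cd53 and Mmp12 points lie low on array 1 and high on array 3, Ptprc and Csf1r lie near 0, and Sftpa1 and Sftpd lie high on array 1.

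The genes most like Cd74 were read off by Pearson r to X13044_g_at over the 11 arrays, which share 3 group means, among 644 other genes with an SD of at least 0.5. Over the array values these were the guanine deaminase Gda (r = 0.979), Sftpb (0.976), the chemokine Cxcl3 (0.97), the defensin Defb4 (0.967), the guanine nucleotide exchange factor Dock8 (0.967), the NF-kB inhibitor Nfkbia (0.963), the transcription factor Klf4 (0.963) and the calcium binding protein S100g (0.962). All 8 were highest in fresh TII cells, as Cd74 was, which follows from choosing genes by a high r to it. Over deviations from the group means, which take the group differences away, they were Fabp5 (0.96), Taldo1 (0.954), the lysosomal protease Ctsd (0.949), the NADPH oxidase subunit Cyba (0.947), the galectin Lgals3 (0.943), Ccl3 (0.938), Grn (0.934) and Mvp (0.932), none of them in the first set. Ccl3 is on the macrophage list and Ctsd on the peptide loading list, and on this measure r was 0.915 for Ctss and 0.858 for Cd53 but -0.173 for Ptprc. For the surfactant genes it was 0.697 for Sftpb, 0.628 for Sftpc, 0.291 for Sftpa1 and -0.341 for Sftpd. Among class II probe sets, deviations followed Cd74 with r from 0.813 to 0.994 for the probe sets of RT1-Da and RT1-Db1, the other Cd74 probe sets, X07551cds_s_at and 3 of RT1-Bb, but r was 0.461 for K02815_s_at, -0.377 for M22366_at, 0.218 for X56596_at and 0.659 for M15358cds_at.

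The peptide loading genes, which act on class II molecules after assembly, did not move as one. Of 11 measured, 4 were lower and 3 higher in fresh TI than in fresh TII cells, where 21.2% and 33% of all genes were. In cultured against fresh TII cells, 2 were lower and 6 higher, with 14% and 20.5% of all genes, and in cultured TII against fresh TI cells 1 was lower and 8 higher, with 34.2% and 25.8%. RT1-DMb, the beta chain of the DM exchange factor, read 6.90, 7.51 and 8.08 in cultured TII, 7.08, 7.39, 7.22 and 6.69 in fresh TI and 8.75, 8.36, 8.34 and 8.19 in fresh TII cells. It was lower than in fresh TII cells in both, with differences of -1.32 ± 0.22 in fresh TI (adjusted p = 0.000364, limma) and -0.92 ± 0.24 in cultured cells (adjusted p = 0.0088). Its partner RT1-DMa differed by -0.38 ± 0.14 and, not called, by 0.11 ± 0.15. The other RT1-DMa probe set was called in neither comparison, at -0.19 and 0.09. The DM inhibitor chain RT1-DOa was 0.33 ± 0.08 higher in fresh TI than in fresh TII cells. Cathepsins, which cut Cd74 and antigens, rose in cultured against fresh TII cells: Ctsd by 3.13 ± 0.36, Ctss by 2.97 ± 0.44, Ctsb by 2.10 ± 0.16 and Ctsl by 1.58 ± 0.16. The other Ctsl probe set, S85184_g_at, differed by 0.25 and was not called. Ctsc, which activates other proteases, went the other way, at -1.33 ± 0.16. It also had the lowest difference on the list for fresh TI minus fresh TII cells, at -1.88 ± 0.15. Against fresh TII cells, Ctsh was -0.53 ± 0.08 in fresh TI and 0.72 ± 0.09 in cultured cells. Cst3 was higher in both, by 0.64 ± 0.07 and 1.02 ± 0.08. Ctss was also 1.23 ± 0.41 higher in fresh TI than in fresh TII cells.

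Read along chromosome 20 in the RefSeq order, the low values were grouped in part. The genes RT1-Da, RT1-Db1, RT1-Ba and RT1-Bb lie in 1 run, with RT1-Db2, which has no probe set here, between RT1-Da and RT1-Db1, and all 4 were lower in cultured and in fresh TI cells than in fresh TII cells. The next measured genes, RT1-DOb and the peptide transporter Tap2, differed by at most 0.07 in either comparison and were not called. Further on, Tap1 was higher by 0.26 ± 0.08 in cultured and 0.20 ± 0.08 in fresh TI cells, and the immunoproteasome genes Psmb8 and Psmb9 were higher, by 0.62 ± 0.19 and 0.55 ± 0.10 in cultured and by 0.92 ± 0.17 and 0.50 ± 0.09 in fresh TI cells. Beyond them RT1-DMb was lower in both, and RT1-DMa was lower in fresh TI cells by its brightest probe set only. RT1-DOa was higher in fresh TI cells, and RT1-Ha was lower in both, at -0.59 ± 0.08 in cultured and -0.31 ± 0.07 in fresh TI cells.

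**Figure D5:**
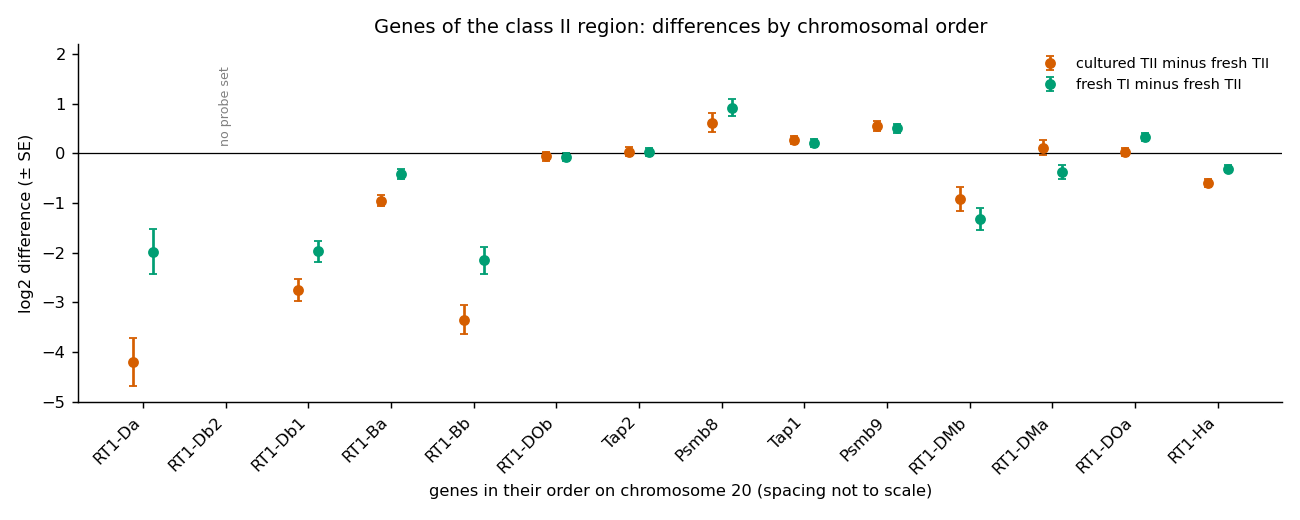
Log2 differences with SE (vertical axis) of the genes of the class II region, drawn in chromosomal order with even spacing (horizontal axis); orange is cultured TII minus fresh TII and green is fresh TI minus fresh TII. The 4 measured RT1-D and RT1-B genes at the left, RT1-DMb and RT1-Ha lie below 0, while Psmb8 and Psmb9 lie above 0 and RT1-DOb and Tap2 at about 0.

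Among 19 measured genes of class II transcription and interferon gamma signalling, 4 (21.1%) were lower and 4 higher both in fresh TI and in cultured TII cells than in fresh TII cells. The shares over all genes were 21.2% lower and 33% higher for fresh TI cells, and 14% and 20.5% for cultured cells. Irf1, an interferon-induced transcription factor, had the lowest differences on the list, -2.16 ± 0.16 in fresh TI (adjusted p = 3.25e-07, limma) and -2.47 ± 0.18 in cultured cells (adjusted p = 1.81e-07). Socs3, an inhibitor of cytokine signalling, was lower at -0.85 ± 0.11 and -0.96 ± 0.12, and Irf8 at -0.22 ± 0.08 and -0.44 ± 0.09. The receptor kinase Jak1 was lower in fresh TI, at -0.32 ± 0.08, and higher in cultured cells, at 0.28 ± 0.09. The interferon gamma receptor chain Ifngr1 was higher, by 0.84 ± 0.13 and 0.76 ± 0.14, and so was Tgfb1, by 0.33 ± 0.11 and 0.88 ± 0.12. Tgfb2 and Tgfb3 were called higher in fresh TI cells only, by 0.46 ± 0.11 and 0.55 ± 0.14. Il4r was called higher in cultured cells only, by 0.55 ± 0.08. The NF-Y subunit Nfya and the X box factor Rfx5 were not called in either comparison. The NF-Y subunit Nfyc was -0.20 ± 0.07 in cultured cells, where its other probe set was not called. In fresh TI cells that other probe set was called, at -0.20, and the brightest was not. For the NF-Y subunit Nfyb, rc_AA817843_at was called lower, at -0.60 in fresh TI and -0.50 in cultured cells. Its brightest probe set, M60617_at, and M60617_g_at were called in neither. Ciita, Rfxap and Rfxank were not analysed here. Of the 5 genes for ligands and partners of Cd74, the cytokine Mif was -0.59 ± 0.07 in fresh TI and 0.83 ± 0.08 in cultured cells against fresh TII cells, with -0.13, not called, and 0.62 by its other probe set. Its relative Ddt was -1.44 ± 0.09 and -1.33 ± 0.10. Of 6 costimulation and adhesion genes, 2 (33.3%, near the share of all genes) were called in fresh TI cells, both higher, with Icam1 at 1.08 ± 0.09, and 3 (50%) in cultured cells, all higher, with Cd48 at 1.45 ± 0.16. Of 15 class I genes, fresh TI cells had 3 lower and 8 (53.3%) higher, and cultured TII cells had 9 (60%) called, all higher. The heavy chain RT1-S3 was 1.08 ± 0.13 in fresh TI cells and, not called, -0.34 ± 0.14 in cultured cells. Lower in fresh TI cells were the loading chaperone Pdia3, at -1.20 ± 0.09, Canx, at -0.39 ± 0.14, and Calr, at -0.26 ± 0.07. In cultured cells these were higher, by 1.20 ± 0.10, 0.65 ± 0.15 and 1.12 ± 0.07. The other Pdia3 probe set was 0.18, not called, in fresh TI and 1.45 in cultured cells.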

How the data were processed

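The deposited table gives 1 log2 value per probe set and array, as made by the authors. The base 2 follows from the range of the values, whose highest is 13.16. The sources used here do not give the summarisation, background correction or normalization, and the values were used as deposited. Groups come from the sample descriptions, since the source field reads the same for all arrays. The probe annotation, which can be old, gave gene names. Of 8799 probe sets, 59 controls were left out and 8740 tested, with no filter on dim signal, with limma 3.58.1 in R 4.3.3, as a two-sided test with 3 group means and no block (lmFit, eBayes). The brightest probe set stood for a gene in list counts. The number of arrays limits the precision. The members, lists and tests were chosen with earlier results of these data known. All member probe sets are named. The plan was to name, by size, up to 6 called genes per comparison from each other class II list. The genes named do not keep to this order, and some called genes are not named. Likeness named the 8 highest r. The fit was tested on simulated data. Whether equal replicate numbers mark paired arrays is not known. Deviations correlated between -0.20 and 0.28 for the 10 same-number pairs and -0.27 and 0.23 for the 30 others. These ranges overlap and cannot settle it. Exact permutation tests used scipy 1.17.1. Alternatives were quantile normalization, a common median and SD, a filter on dim probe sets, an intensity trend, array weights, 2-group fits, the replicate block, an adjusted p under 0.01, the mean of a gene's probe sets and leaving out each array.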

Additional observations from a re-analysis of the deposited data

Results flagged for a closer look

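Of the 32 sets of 4 fresh arrays tested, 1 per probe set and fresh group, 4 had 1 array further from the rest than Dixon's 95% critical value allows, where chance gives about 1 in 20. In all 4 that array was fresh TI replicate 4, at 7.75 for RT1-Da M15562_g_at, 6.92 for RT1-Db1 X53054_g_at, 6.72 for RT1-Bb M36151cds_s_at and 7.22 for Cd74 X14254cds_at. The nearest fresh TI arrays read 8.85, 7.72, 7.66 and 8.01. The flags are not independent, since the probe sets share arrays.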

How the results depend on the processing

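Of 48 differences (16 probe sets, 3 comparisons), 43 were called, and none of these changed sign under any of the 19 alternatives. Of 903 recomputed differences, 864 kept their direction and their side of the threshold, 23 lost a call, 4 gained one and 12 changed sign. The sign changes were all in 2 dim RT1-Bb probe sets in comparisons where their differences were close to 0 and not called. For M15358cds_at in fresh TI minus fresh TII cells the values were -0.105 with quantile normalization, -0.1 with a common median and SD and -0.013 with array weights, and without single arrays -0.01 (fresh TII replicate 1), -0.003 (fresh TII replicate 2) and -0.093 (fresh TI replicate 2), in a range of -0.09 to 0.07. For X56596_at in cultured minus fresh TII cells they were 0.004 with quantile normalization, with a common median and SD and with the replicate block, and without single arrays 0.037 (fresh TII replicate 2), 0.033 (cultured TII replicate 1) and 0.028 (cultured TII replicate 2), in a range of -0.10 to 0.04. RT1-Ba X07551cds_s_at lost its call in fresh TI minus fresh TII cells with quantile normalization, at -0.14, and the cause was not tested. RT1-Db1 X53054_at in that comparison lost its call in 5 alternatives, ranging from -0.62 to -0.31 when single arrays were left out. With the replicate block, 13 probe sets were called lower and 2 higher in fresh TI against fresh TII cells, 13 lower in cultured against fresh TII cells and 15 lower in cultured TII against fresh TI cells, as without it. Leaving out single arrays gave 13 to 15 called probe sets in fresh TI against fresh TII cells, 13 to 14 in cultured against fresh TII cells and 12 to 16 in cultured TII against fresh TI cells. Of 1440 recomputed gene list counts, 151 moved by over 1.5 times, 143 of them counts of 5 or fewer. In fresh TI against fresh TII cells, 2 to 4 peptide loading genes were called lower and 5 to 10 class I genes higher. The dimmest probe sets, RT1-Bb M15358cds_at and X56596_at and RT1-Db1 X53054_at, read between 3.96 and 5.30 on all arrays. Whether their low signal limits their differences was not tested.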
